A study of Mus musculus with 64 samples.

Results

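The cell proliferation genes described here are 41 genes, a list of S phase genes, mitosis genes and E2F factors that was matched by gene symbol to the count table. The table lists 52636 genes, of which 20249 were expressed highly enough to be tested, and all 41 members were among those tested. The RNA came from 2 depots, brown fat (BAT) and the white fat beside the epididymis (eWAT), of male mice of the *Nampt* tm1Jtree line, in which loxP sites flank part of *Nampt*, the gene of the rate-limiting enzyme of NAD+ salvage. FANKO mice carried this allele together with Adiponectin-Cre (Jackson Labs), and Cre- littermates, labelled wildtype and called WT here, were the controls. Tissue was collected at zeitgeber time (ZT, hours after lights on) 6, 10, 18 and 22, with 4 samples for each combination of depot, genotype and ZT (16 groups), so that 16 samples stood for each depot and genotype. The mice of the gene expression work were 2 to 4 months old, and the labels name no other treatment. Adiponectin-Cre is active in adipocytes, so the other cells of the tissue were not targeted, and in such bulk RNA more or fewer cells of a type and more or less RNA per cell cannot be told apart.

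A cell that divides copies its DNA once in S phase and separates the copies in mitosis. Before S phase the MCM helicase is loaded on origins of replication by *Cdc6* and *Cdt1*, and E2F factors drive the genes that copy DNA and supply its building blocks. Later, *Foxm1* and its partners drive the cyclins, kinases and spindle proteins of mitosis. Many mitosis genes are silenced in resting cells by the DREAM complex at a promoter element, the cell cycle genes homology region (CHR), and activated through CCAAT boxes, which bind NF-Y, while mature fat cells rarely divide, so that transcripts of this kind in fat are usually ascribed to precursor, endothelial and immune cells.

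Promoter windows of 300 bases, from 250 before to 50 after a gene's start, were taken from RefSeq on GRCm38.p6 for the 34 members that have one, with 37 windows in all because some members have more than 1 start. No window was used for *Mcm4*, *Gins2*, *Foxm1*, *Ccna2*, *Aurkb*, *Kif20a* and *Tpx2*. Both strands were searched. The CHR core TTTGAA stood in 18 of the 37 windows of members, 48.6%, against 17.9% of all 32851 windows of the same length. The letters CCAAT stood in 30 windows of members, 81.1% against 37.4%, and CHR and CCAAT stood together in 18, 48.6% against 6.95%. An E2F site, searched as TTCCCGC or TTGGCGC, stood in 13, 35.1% against 6.81%. The E-box CACGTG, to which clock factors bind, stood in 1 window of a member, that of *Tyms*, or 2.7% against 7.15%. A CCAAT box read on the other strand can share letters with TTGGCGC, and a match is a stretch of letters, not a measured binding site. The first 4 windows below, shown 5′ to 3′ on the strand of the gene, are those of *Cdk1*, *Top2a* and *Cdc20*, mitosis genes that rose in FANKO BAT, and of *Cdc45*, a replication gene that fell there, with every CHR and CCAAT match in capitals (TTCAAA and ATTGG where the match is on the other strand).
Cdk1, chr10:69352863-69353162, minus strand: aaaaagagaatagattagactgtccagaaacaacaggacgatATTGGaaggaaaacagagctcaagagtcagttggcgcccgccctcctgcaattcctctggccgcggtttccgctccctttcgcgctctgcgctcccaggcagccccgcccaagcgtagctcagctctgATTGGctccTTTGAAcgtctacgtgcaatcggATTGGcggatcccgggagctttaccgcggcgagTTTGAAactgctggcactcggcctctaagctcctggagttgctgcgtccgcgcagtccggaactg
Top2a, chr11:99024140-99024439, minus strand: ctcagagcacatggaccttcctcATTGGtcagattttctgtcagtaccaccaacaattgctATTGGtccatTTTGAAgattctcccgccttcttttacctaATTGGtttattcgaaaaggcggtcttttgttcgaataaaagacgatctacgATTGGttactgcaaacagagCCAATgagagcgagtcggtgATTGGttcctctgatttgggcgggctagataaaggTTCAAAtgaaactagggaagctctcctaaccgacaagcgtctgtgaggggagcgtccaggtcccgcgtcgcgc
Cdc20, chr4:118437294-118437593, minus strand: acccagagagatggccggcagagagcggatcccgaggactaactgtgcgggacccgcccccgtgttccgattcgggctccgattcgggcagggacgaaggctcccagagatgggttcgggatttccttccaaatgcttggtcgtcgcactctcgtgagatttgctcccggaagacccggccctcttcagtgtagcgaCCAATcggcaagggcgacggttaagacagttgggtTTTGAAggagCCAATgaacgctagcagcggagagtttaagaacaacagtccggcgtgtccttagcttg
Cdc45, chr16:18811923-18812222, minus strand: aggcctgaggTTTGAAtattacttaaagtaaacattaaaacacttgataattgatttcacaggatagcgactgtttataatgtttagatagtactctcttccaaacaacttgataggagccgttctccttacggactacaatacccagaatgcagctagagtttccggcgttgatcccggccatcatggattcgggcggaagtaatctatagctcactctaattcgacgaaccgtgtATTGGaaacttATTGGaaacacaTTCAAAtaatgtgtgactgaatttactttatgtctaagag

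The next 4 windows, in the same orientation, carry an E2F match, which is in capitals. They are those of *Mcm6* and *E2f8*, which rose in FANKO BAT, of *Rrm1*, which fell there, and of *E2f2*, the member with the largest daily change.
Mcm6, chr1:128359656-128359955, minus strand: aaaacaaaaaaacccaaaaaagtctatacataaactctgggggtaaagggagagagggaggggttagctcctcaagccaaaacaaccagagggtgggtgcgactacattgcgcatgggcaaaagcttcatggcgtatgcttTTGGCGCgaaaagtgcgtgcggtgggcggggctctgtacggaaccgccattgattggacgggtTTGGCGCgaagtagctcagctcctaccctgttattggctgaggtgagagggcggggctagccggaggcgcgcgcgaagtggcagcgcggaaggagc
E2f8, chr7:48881547-48881846, minus strand: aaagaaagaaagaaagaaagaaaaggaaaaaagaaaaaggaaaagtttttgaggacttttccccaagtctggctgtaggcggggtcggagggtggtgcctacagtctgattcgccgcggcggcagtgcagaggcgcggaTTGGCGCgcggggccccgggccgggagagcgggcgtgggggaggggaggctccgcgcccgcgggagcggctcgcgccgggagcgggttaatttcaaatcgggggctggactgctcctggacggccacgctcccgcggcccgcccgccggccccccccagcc
Rrm1, chr7:102441445-102441744, plus strand: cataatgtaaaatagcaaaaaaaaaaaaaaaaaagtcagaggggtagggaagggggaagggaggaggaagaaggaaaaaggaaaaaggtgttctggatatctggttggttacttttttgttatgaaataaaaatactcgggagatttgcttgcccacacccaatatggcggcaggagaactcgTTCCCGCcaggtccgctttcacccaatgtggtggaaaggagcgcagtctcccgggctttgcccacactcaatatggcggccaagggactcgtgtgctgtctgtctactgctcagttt
E2f2, chr4:136172024-136172323, plus strand: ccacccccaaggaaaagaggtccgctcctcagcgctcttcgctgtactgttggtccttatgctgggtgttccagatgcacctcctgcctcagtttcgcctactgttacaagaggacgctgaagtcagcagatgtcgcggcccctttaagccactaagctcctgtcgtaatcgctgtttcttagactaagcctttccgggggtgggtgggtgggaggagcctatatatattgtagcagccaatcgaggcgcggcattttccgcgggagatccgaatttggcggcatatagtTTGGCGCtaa

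The same letters thus stood in windows of genes called higher and of genes called lower in FANKO BAT. The lower calls of *Cdc45* and *Rrm1* did not hold when libraries were scaled by their size alone. The part of these letters in the levels was not tested. By role, E2F matches were found in 7 of the 10 windows of replication genes and in 0 of the 6 windows of kinetochore genes and 0 of the 4 of spindle genes. They were also in 2 of 5 of cyclins and mitotic kinases, 1 of 2 of chromosome genes and 2 of 4 of transcription factors. Of deoxynucleotide genes 1 of 4 windows had one, and of anaphase promoting complex partners 0 of 2. CHR matches were found in 4 of the 5 windows of cyclins and mitotic kinases, in 3 of 4 of spindle genes and in 2 of 10 of replication genes. They were also in 3 of 6 of kinetochore genes, 2 of 4 of transcription factors and 0 of 4 of deoxynucleotide genes. Both the chromosome genes and the anaphase promoting complex partners had them in 2 of 2. Neither window of *E2f2* held the letters CACGTG.

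The deleted gene was read first as a check of the labels. *Nampt* lay between 479 and 1454 CPM (counts relative to the library size, which was scaled by the TMM method) in the 16 WT BAT samples and between 109 and 186 CPM in the 16 FANKO BAT samples. In eWAT it lay between 112 and 310 CPM in WT and between 101 and 131 CPM in FANKO samples. *Nampt* fell by 2.31 on the log2 scale in BAT (edgeR's quasi-likelihood test, Benjamini-Hochberg adjusted p = 1.09e-36) and fell by 0.50 in eWAT (adjusted p = 4.67e-09). The groups overlapped in eWAT and did not overlap in BAT. *Ucp1*, the thermogenic gene of brown fat, had a median of 4305 CPM in WT BAT and 0.213 CPM in WT eWAT, and the adipocyte gene *Adipoq* had 941 and 2370 CPM. The libraries held between 6117343 and 30544847 counts, median 15826651. In 9 samples, 7 of BAT and 2 of eWAT, skeletal muscle or epididymis markers summed to more than 100 CPM, and the counts below were also computed without them. The FANKO eWAT sample among the 9, ZT 6 replicate 1 with a muscle sum of 114 CPM, passed through *Acta1* alone. *Acta1* reached 113 CPM in FANKO eWAT and the other muscle markers at most 0.720 CPM.

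Most proliferation genes were higher in BAT of FANKO mice. Of the 41 members, 35 rose, against 33.1% of all genes tested, and 2 fell, against 33.9%, with a false discovery rate (FDR) threshold of 0.01 in edgeR's test of the mean level over the 4 time points. The median difference of the members was 2.14 on the log2 scale, a 4.402-fold higher level, against 9.69e-05 over all genes tested, and single members ranged from -0.58 to 4.61. The members that fell were *Cdc45* and *Rrm1*, and those that did not pass the test were *Mcm7*, *Gins2*, *Tyms* and *E2f2*. Without the 9 samples high in muscle or epididymis markers the same test again called 35 members higher and 2 lower.

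**Figure D1:**
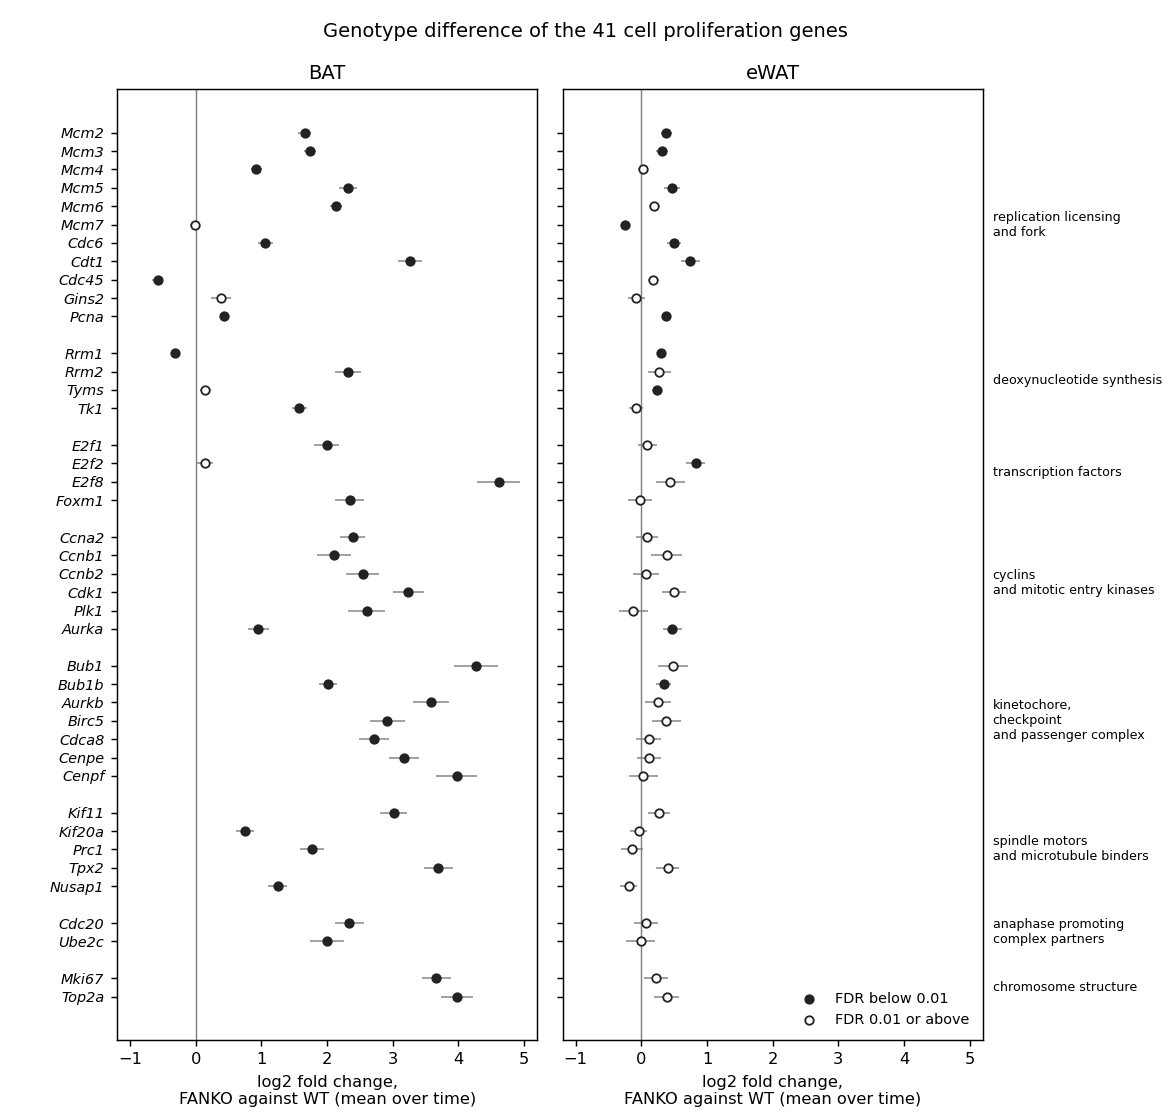
Log2 fold change of FANKO over WT for each of the 41 members, grouped by role, in BAT and eWAT, with the standard error as a bar and filled points for an FDR below 0.01. In BAT 35 points are filled to the right of 0 and reach 4.61, whereas in eWAT 11 are, none beyond 0.83.

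The increase was read most directly from the usual proliferation markers. *Mki67*, at chr7:135689784-135716361 of GRCm38 on the minus strand, encodes the Ki-67 protein that coats chromosomes of dividing cells. Its WT BAT values in CPM were 1.70, 3.69, 1.40 and 1.74 at ZT 6, 2.02, 1.90, 4.80 and 3.11 at ZT 10, 4.61, 5.45, 4.28 and 0.699 at ZT 18, and 2.37, 1.61, 4.01 and 2.99 at ZT 22. In FANKO BAT they were 66.9, 22.2, 21.0 and 62.5 at ZT 6, 21.4, 46.6, 28.6 and 24.4 at ZT 10, 23.2, 27.6, 25.3 and 43.5 at ZT 18, and 32.7, 37.5, 57.4 and 34.6 at ZT 22. Every FANKO sample was above every WT sample at each ZT, with the lowest FANKO value at 21.0 CPM and the highest WT value at 5.45 CPM. The difference was 3.66 ± 0.22 (SE) on the log2 scale, a 12.6-fold higher level (adjusted p = 2.58e-22). *Top2a*, the topoisomerase that untangles replicated DNA, lay between 0.437 and 3.03 CPM in WT BAT, median 1.77, and between 15.5 and 45.9 CPM in FANKO BAT, median 23.2. It was 15.8-fold higher (3.98 ± 0.24, adjusted p = 2.28e-22), again with no overlap. In eWAT neither marker passed the test. *Mki67* had medians of 16.6 CPM in WT and 19.8 CPM in FANKO eWAT (0.23 ± 0.18, adjusted p = 0.28) and *Top2a* had medians of 10.5 and 14.5 CPM (0.39 ± 0.19, adjusted p = 0.0706), and both overlapped between the genotypes.

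**Figure D2:**
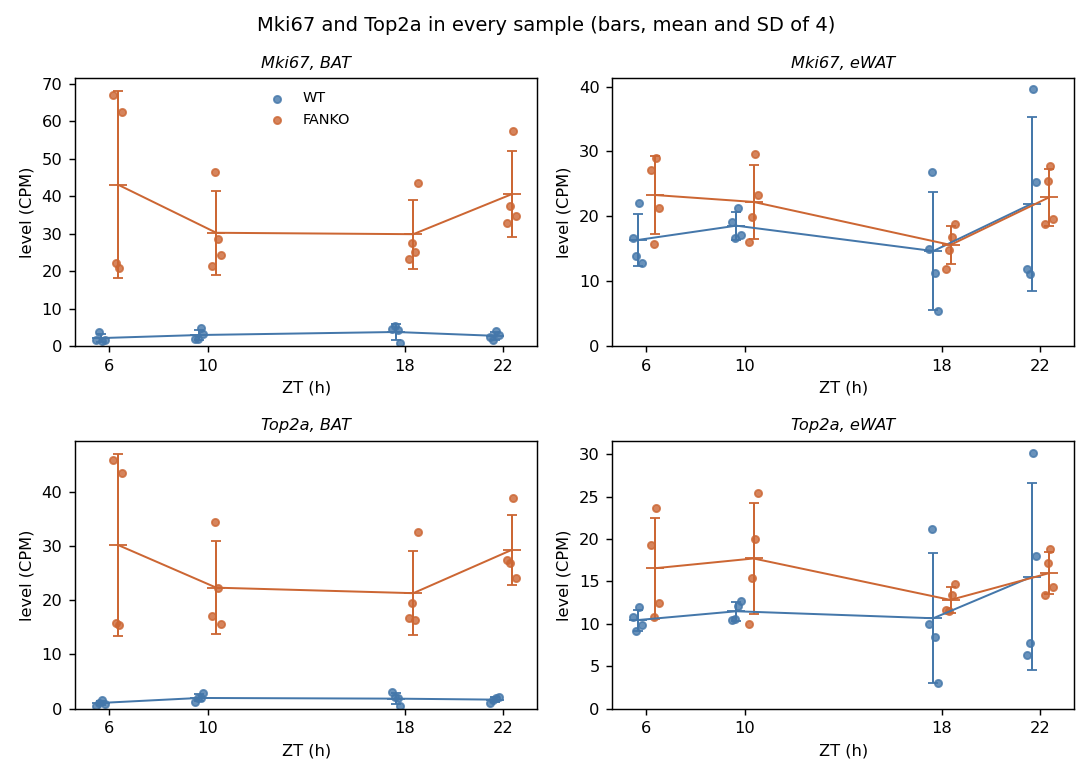
CPM of Mki67 and Top2a in each of the 64 samples by ZT, depot and genotype, with the mean and SD of 4 samples. In BAT the FANKO points lie between 15.5 and 66.9 CPM and the WT points between 0.437 and 5.45 CPM, while in eWAT the genotypes overlap.

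Genes of replication licensing and of the replication fork were split in BAT. Of 11 members 8 rose, against 33.1% of all genes tested, and 1 fell, against 33.9%, with a median of 1.06 on the log2 scale. *Mcm6*, a subunit of the MCM helicase, had values in WT BAT of 4.23, 5.67, 5.07 and 4.54 CPM at ZT 6, 5.05, 5.18, 4.55 and 5.93 at ZT 10, 3.79, 5.401, 4.76 and 5.24 at ZT 18, and 3.71, 3.15, 5.69 and 5.68 at ZT 22. The FANKO BAT values were 34.0, 17.6, 15.6 and 28.3 at ZT 6, 17.8, 24.2, 19.0 and 17.5 at ZT 10, 17.7, 19.9, 13.9 and 25.3 at ZT 18, and 20.7, 23.8, 26.1 and 20.04 at ZT 22. The ranges were far apart, 3.15 to 5.93 CPM against 13.9 to 34.0 CPM, and *Mcm6* had the smallest p of all members (2.14 ± 0.09, adjusted p = 7.10e-29). The other helicase subunits *Mcm2*, *Mcm3*, *Mcm4* and *Mcm5* rose by 1.66, 1.74, 0.92 and 2.32 on the log2 scale, each with all 16 FANKO BAT samples above all 16 WT BAT samples. *Mcm7*, the remaining subunit of the list, lay between 10.4 and 20.4 CPM in WT BAT and between 12.2 and 18.4 CPM in FANKO BAT, with a difference of -0.02 ± 0.07 (adjusted p = 0.837). Its exons share 321 bases with *Ap4m1* on the opposite strand, and whether the counting used strand is not given in the sources used here. The loading factor *Cdt1* was 9.59-fold higher, from a median of 0.331 to 3.81 CPM (3.26 ± 0.18, adjusted p = 1.42e-24). *Cdc6*, its partner in helicase loading, rose by 1.06 and *Pcna*, the sliding clamp of the DNA polymerases, by 0.43. *Gins2*, which belongs to the active helicase, had medians of 1.69 and 2.22 CPM (0.38 ± 0.15, adjusted p = 0.0209), and its exons share 2758 bases with *Gse1* on the opposite strand.

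*Cdc45*, at chr16:18780447-18811987 on the minus strand, joins MCM and GINS in the active helicase and moved the other way. Its WT BAT values were 8.36, 7.80, 9.29 and 7.85 CPM at ZT 6, 8.32, 8.35, 9.27 and 8.90 at ZT 10, 8.401, 9.002, 8.23 and 10.05 at ZT 18, and 5.49, 6.70, 6.19 and 8.31 at ZT 22. Its FANKO BAT values were 5.51, 4.61, 6.96 and 5.22 at ZT 6, 5.196, 7.02, 6.56 and 6.25 at ZT 10, 6.19, 4.43, 3.30 and 5.91 at ZT 18, and 5.15, 4.80, 5.33 and 5.14 at ZT 22. All 4 FANKO samples were below all 4 WT samples at each ZT, although the ranges over all 16 samples overlapped. *Cdc45* fell by 0.58 ± 0.08 (adjusted p = 3.24e-09), but with libraries scaled by their size alone its difference was 0.01 (adjusted p = 0.903). Under that scaling the median of all genes in BAT moved from 9.69e-05 to 0.58 on the log2 scale, and 84.9% rather than 49.4% of the genes called were higher in FANKO BAT. Its exons share 209 bases with *Ufd1* on the opposite strand.

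The 4 members of deoxynucleotide synthesis were also split, with 2 higher and 1 lower in FANKO BAT, where 33.1% and 33.9% of all genes tested were. *Rrm2*, the small subunit of ribonucleotide reductase that is made in S phase, had a median of 0.724 CPM in WT BAT and 3.77 CPM in FANKO BAT, a 5.003-fold difference (2.32 ± 0.20, adjusted p = 5.02e-16). *Rrm1*, its large subunit, lay between 32.9 and 48.2 CPM in WT BAT and between 26.1 and 38.8 CPM in FANKO BAT. It fell by 0.32 ± 0.05 (adjusted p = 3.56e-07), with no overlap at ZT 6, ZT 10 and ZT 22, but was 0.27 higher with library size alone (adjusted p = 0.000105). The subunits of this enzyme thus differed in the direction of their call under TMM. The thymidine kinase *Tk1* had a median of 2.61 CPM in WT BAT and 7.51 CPM in FANKO BAT and rose by 1.58 ± 0.12 (adjusted p = 9.55e-19). *Tyms*, the enzyme that makes thymidylate from deoxyuridylate, had medians of 5.15 and 5.56 CPM (0.15 ± 0.08, adjusted p = 0.102), and its values overlapped at each ZT.

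Of the 4 transcription factors of the list, 3 rose in FANKO BAT, against 33.1% of all genes tested. *E2f8*, an E2F factor that represses transcription and is itself made in S phase, was listed at 0 in 8 of 16 WT BAT samples and reached at most 0.272 CPM there. In FANKO BAT it lay between 0.554 and 3.24 CPM, above every WT sample. Its difference was the largest of the members (4.61 ± 0.33, adjusted p = 2.20e-19), and its exons share 610 bases with *Gm2788* on the opposite strand. *E2f1*, an activating E2F factor, rose by 1.99 ± 0.19 from a median of 0.632 to 2.82 CPM (adjusted p = 1.48e-14). *Foxm1* rose by 2.34 ± 0.23 from 0.423 to 1.96 CPM (adjusted p = 3.16e-14). *E2f2* did not pass the test of the mean level (0.13 ± 0.13, adjusted p = 0.374), and its daily course is described below.

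Genes of mitosis rose without exception among the members in BAT, 6 of 6 cyclins and mitotic entry kinases, 7 of 7 genes of the kinetochore, checkpoint and passenger complex, 5 of 5 spindle genes and 2 of 2 partners of the anaphase promoting complex. Among all genes tested 33.1% rose in BAT. *Cdk1*, the kinase that starts mitosis, lay between 0.0807 and 0.745 CPM in WT BAT and between 1.74 and 6.01 CPM in FANKO BAT (3.23 ± 0.24, adjusted p = 1.07e-18). Its cyclins *Ccna2*, *Ccnb1* and *Ccnb2* rose by 2.39, 2.10 and 2.54, and the kinase *Plk1* by 2.60. *Aurka*, a kinase of the centrosome, had the weakest test of this group, with medians of 1.56 and 2.86 CPM (0.95 ± 0.15, adjusted p = 1.44e-07). In the kinetochore group *Bub1b*, a spindle checkpoint kinase, lay between 0.593 and 2.82 CPM in WT and between 4.42 and 10.3 CPM in FANKO BAT (2.01 ± 0.13, adjusted p = 4.97e-21). *Birc5*, the survivin subunit of the passenger complex, had medians of 0.241 and 2.03 CPM (2.92 ± 0.27, adjusted p = 1.23e-14), and its partners *Aurkb* and *Cdca8* rose by 3.58 and 2.71. *Bub1*, listed at 0 in 5 WT BAT samples, lay between 0.950 and 4.49 CPM in FANKO BAT. Both *Cenpe* and *Cenpf*, large proteins of the outer kinetochore, rose, by 3.18 and 3.97.

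The spindle genes ranged widely in size of change. *Tpx2*, which activates *Aurka* at the spindle, lay between 0.0780 and 1.05 CPM in WT BAT and between 3.20 and 9.51 CPM in FANKO BAT, a 12.9-fold difference (3.69 ± 0.23, adjusted p = 2.90e-22). *Kif20a*, a kinesin of the final cut between daughter cells, lay between 1.45 and 3.07 CPM in WT and between 1.84 and 5.74 CPM in FANKO BAT, and rose by 0.75 ± 0.13 (adjusted p = 1.32e-06) with overlapping values. Its exons share 1271 bases with *Cdc23* on the opposite strand. *Kif11*, the motor that pushes the poles apart, *Prc1*, which bundles microtubules between them, and *Nusap1*, a microtubule binder, rose by 3.01, 1.77 and 1.25. *Cdc20*, the activator of the anaphase promoting complex, had medians of 0.396 and 1.97 CPM (2.34 ± 0.22, adjusted p = 2.81e-14). Its ubiquitin-conjugating partner *Ube2c* had medians of 0.298 and 1.20 CPM (2.00 ± 0.26, adjusted p = 5.38e-10), and its exons share 592 bases with the muscle gene *Tnnc2* on the opposite strand. Exons of *Prc1* and *Ccna2* also overlap those of a gene on the opposite strand, *Rccd1* by 911 bases and *Exosc9* by 510 bases. Many of the WT BAT values rest on few reads. Of 656 member values in WT BAT 26 were 0, in 11 members, and the median of the members' median counts was 15, against 74 in FANKO BAT, where no value was 0.

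The separation held at each time of day. All 4 FANKO BAT samples were above all 4 WT BAT samples for 33 members at ZT 6, against 25.4% of all genes tested, for 35 at ZT 10, against 26.7%, for 34 at ZT 18, against 20.8%, and for 35 at ZT 22, against 24.8%. Over all time points all 16 FANKO BAT samples were above all 16 WT BAT samples for 28 members, against 12.5% of genes. The 13 other members were the 6 that fell or did not pass the test and *Cdc6*, *Pcna*, *Rrm2*, *E2f1*, *Ccnb1*, *Aurka* and *Kif20a*.

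Per kilobase of exon, the order of the members changed with genotype in BAT. In WT BAT *Pcna* had the highest mean, 9.45 RPKM (CPM divided by the kilobases of exon), followed by *E2f2* with 4.41, *Rrm1* with 3.60 and *Mcm7* with 3.40 RPKM, whereas *Mki67* was at place 19 with 0.288 RPKM. In FANKO BAT *Pcna* was again first with 12.7 RPKM, followed by *Mcm4* with 4.69, *Mcm6* with 4.57, *Mcm3* with 3.64 and *Mki67* with 3.57 RPKM. *E2f8* was last in both, with 0.0110 and 0.315 RPKM.

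In eWAT 11 members rose, against 27.6% of all genes tested, and 1 fell, against 22.8%, so that the members were called higher about as often as other genes. The median difference was 0.24 on the log2 scale. The count of 11 depended on the scaling, with 8 in DESeq2, 7 with RLE factors and 2 with library size alone. Without the 9 samples high in muscle or epididymis markers it was 12, and without the replicates numbered 3 it was 5. Replication genes made up most of the calls, 6 higher and 1 lower of 11, followed by 2 of 4 genes of deoxynucleotide synthesis, 1 of 4 transcription factors, 1 of 6 cyclins and kinases and 1 of 7 kinetochore genes, with none among the 5 spindle genes, the partners of the anaphase promoting complex and the chromosome genes.

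*Pcna* had the smallest p among the replication genes in eWAT, with a range of 17.96 to 29.0 CPM in WT and of 23.1 to 34.7 CPM in FANKO eWAT (0.38 ± 0.06, adjusted p = 3.63e-08). *Cdt1* rose by 0.75 ± 0.14 from a median of 1.53 to 2.77 CPM (adjusted p = 6.86e-06), and *Cdc6*, *Mcm2*, *Mcm3* and *Mcm5* rose by 0.50, 0.38, 0.31 and 0.47. *Mcm4* had medians of 15.2 and 14.8 CPM (0.03 ± 0.08, adjusted p = 0.76), and *Mcm7*, the member that fell, had medians of 19.2 and 16.1 CPM (fell by 0.25 ± 0.06, adjusted p = 0.000546). These values overlapped between the genotypes for each gene. *Rrm1*, lower in FANKO BAT, lay between 15.4 and 25.2 CPM in WT eWAT and between 22.6 and 29.5 CPM in FANKO eWAT and rose by 0.30 ± 0.05 (adjusted p = 2.84e-06). With library size alone its difference in eWAT was 0.05 (adjusted p = 0.46). *E2f2* rose by 0.83 ± 0.15 (adjusted p = 1.88e-06), *Aurka* by 0.47 ± 0.14 (adjusted p = 0.00408) and *Bub1b* by 0.34 ± 0.11 (adjusted p = 0.00891), and *Tyms* by 0.24. The genes at the other end of each role were *Tk1* (-0.08 ± 0.11, adjusted p = 0.533), *Foxm1* (-0.02 ± 0.18, adjusted p = 0.93), *Ccnb2* (0.07 ± 0.20, adjusted p = 0.775), *Cenpf* (0.03 ± 0.22, adjusted p = 0.913), *Kif20a* (-0.04 ± 0.13, adjusted p = 0.797) and *Ube2c* (-0.01 ± 0.22, adjusted p = 0.981). *Tpx2* had the smallest p of the spindle genes (0.40 ± 0.18, adjusted p = 0.0485), and *Cdc20* had a difference of 0.07 ± 0.18 (adjusted p = 0.752).

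At single time points all 4 FANKO eWAT samples were above all 4 WT eWAT samples for 9 members at ZT 6, against 21.6% of genes, 6 at ZT 10, against 22.2%, 2 at ZT 18, against 13.5%, and 4 at ZT 22, against 16.4%. No member had all 16 FANKO samples above all 16 WT samples in eWAT.

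The effect of the genotype differed between the depots for 36 members in the interaction test of the same fit. Taken with its sign, the effect in eWAT minus that in BAT was negative for 33, against 32.2% of all genes tested. It was positive for 3, *Cdc45*, *Rrm1* and *E2f2*, against 32.1%. Of these, *Cdc45* and *Rrm1* were called lower in FANKO BAT, so a positive value is not a larger effect in eWAT. The difference of effects was -3.43 ± 0.29 on the log2 scale for *Mki67* (adjusted p = 2.93e-16), -1.94 ± 0.13 for *Mcm6* (adjusted p = 9.58e-21) and 0.77 ± 0.11 for *Cdc45* (adjusted p = 1.80e-08). For *Pcna* it was -0.04 ± 0.08 (adjusted p = 0.639).

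WT BAT held lower levels than WT eWAT for 35 members, against 41.1% of genes, and higher levels for 3, again *Cdc45*, *Rrm1* and *E2f2*, against 32.7%, with a median difference of -1.57 on the log2 scale. *Mki67* was 2.67 lower on this scale in WT BAT (adjusted p = 1.54e-16), with 0.699 to 5.45 CPM in BAT and 5.44 to 39.5 CPM in eWAT, and *E2f2* was 1.80 higher (adjusted p = 5.14e-17). *Cdc45* was 0.46 higher, although its unscaled counts totalled 1621 in WT BAT and 1863 in WT eWAT. The median TMM factors were 0.740 and 1.23 in these sets, and the median library totals 17180574 and 15826651 counts. In FANKO mice 16 members were higher in BAT than in eWAT, against 28.1% of genes, 3 were lower, against 31.6%, and the median difference was 0.38. *Mki67* was then 0.77 higher in BAT (adjusted p = 0.000178), and those lower were *Cdc45*, *Gins2* and *E2f1*. The count of 16 was 25 in DESeq2 and with RLE factors, and between 10 and 25 when replicates of 1 number were left out.

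The daily course of most members was not called rhythmic. In the fit of a 24-h cosine curve 2 members were rhythmic in WT BAT, *E2f2* and *Mcm2*, against 13.9% of all genes tested. In FANKO BAT 0 members were rhythmic, against 2.84% of genes, with 4 at an unadjusted p under 0.05 in edgeR and 0 called in DESeq2. In eWAT *E2f2* was the only member called in WT, against 9.38% of genes, and in FANKO, against 6.77%. Over all members the median amplitude, the highest minus the lowest time-point mean of log2 CPM, was 0.57 for WT and 0.44 for FANKO in BAT and 0.41 for WT and 0.44 for FANKO in eWAT, and over all genes tested it was 0.43, 0.33, 0.37 and 0.35.

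*E2f2*, at chr4:136172394-136196057 of GRCm38 on the plus strand, is an activating E2F factor that is also made in erythroid precursors, and it had the steepest daily course. Its WT BAT values in CPM were 6.14, 5.67, 5.46 and 6.98 at ZT 6, 2.33, 3.70, 2.40 and 1.55 at ZT 10, 31.3, 39.0, 43.8 and 15.8 at ZT 18, and 47.3, 56.3, 44.7 and 31.7 at ZT 22. In FANKO BAT they were 15.6, 12.4, 11.0 and 14.5 at ZT 6, 8.85, 9.47, 10.4 and 9.10 at ZT 10, 18.2, 16.8, 15.4 and 15.2 at ZT 18, and 19.0, 16.3, 17.2 and 15.8 at ZT 22. FANKO samples were thus above all WT samples at ZT 6 and ZT 10 and below all WT samples at ZT 22, and at ZT 18 the groups overlapped through the WT sample at 15.8 CPM, which is 1 of the 9 samples high in muscle or epididymis markers. The amplitude was 4.14 ± 0.30 (SE) on the log2 scale in WT BAT, a 17.6-fold range (rhythm adjusted p = 1.68e-18), and 0.84 ± 0.08 in FANKO BAT (adjusted p = 0.0633), with the peak at ZT 22 and the trough at ZT 10 in both. The rhythms differed between the genotypes (edgeR, adjusted p = 5.32e-09), and without those 9 samples the adjusted p was 6.54e-08. This was the only member of 41 called in that test, against 2.76% of genes, with 10 members at an unadjusted p under 0.05. All 5 tested erythroid markers fell in FANKO BAT, against 33.9% of all genes tested. Their sums ranged from 225 to 545 CPM in WT and from 80.4 to 229 CPM in FANKO BAT. In WT BAT these sums were 225 to 526 CPM at ZT 10 and 296 to 470 CPM at ZT 22. The part of erythroid cells in the level of *E2f2* was not tested.

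In eWAT the course of *E2f2* had the same order of time points. The WT eWAT values were 3.71, 3.14, 3.22 and 2.49 CPM at ZT 6, 1.86, 2.60, 1.92 and 2.51 at ZT 10, 4.00, 6.78, 6.05 and 1.12 at ZT 18, and 3.81, 4.42, 8.14 and 5.01 at ZT 22. The FANKO eWAT values were 4.33, 4.26, 5.39 and 4.26 at ZT 6, 1.60, 3.25, 2.72 and 3.63 at ZT 10, 11.2, 10.8, 9.71 and 10.1 at ZT 18, and 14.0, 13.1, 12.04 and 9.99 at ZT 22. FANKO samples were above all WT samples at ZT 6, ZT 18 and ZT 22. The amplitude was 1.18 ± 0.26 in WT (adjusted p = 0.00293) and 2.13 ± 0.27 in FANKO eWAT (adjusted p = 3.26e-08), and the difference of the rhythms did not pass the test (adjusted p = 0.253). No member passed it in eWAT, against 1.15% of genes, with 3 at an unadjusted p under 0.05 in edgeR and 0 called in DESeq2. The call in WT eWAT was lost with library size alone (adjusted p = 0.0113) and when replicate 1, 2 or 3 was left out.

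**Figure D3:**
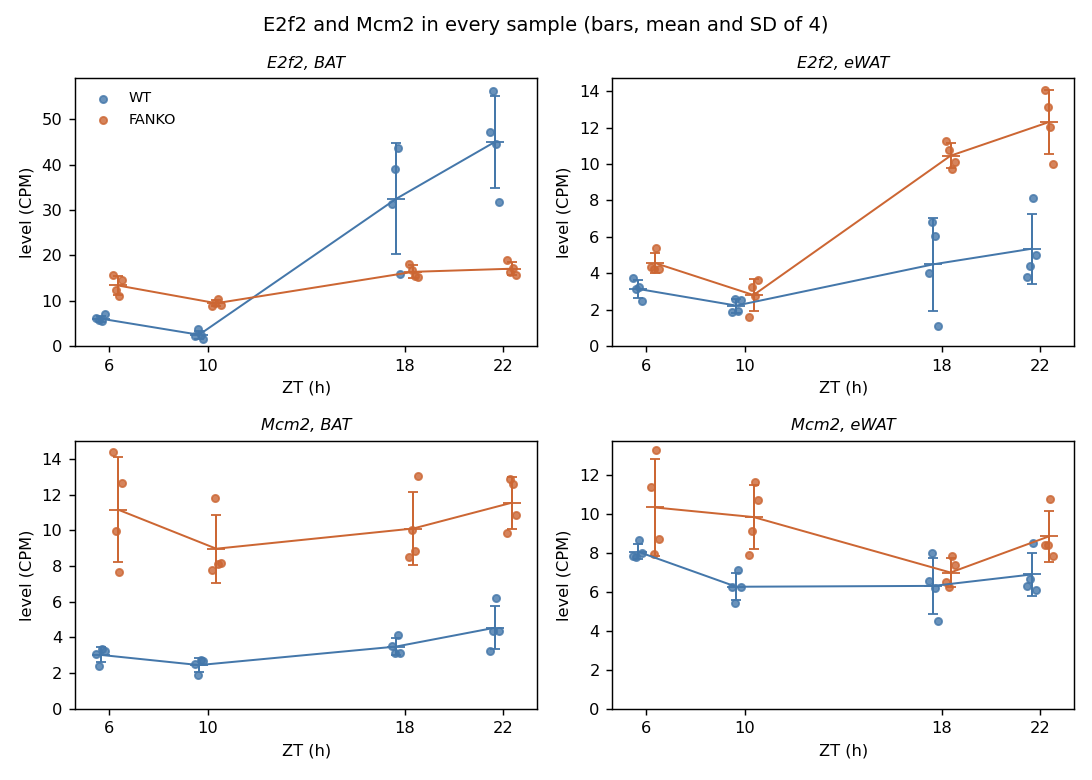
CPM of E2f2 and Mcm2 in each of the 64 samples by ZT, depot and genotype, with the mean and SD of 4 samples. E2f2 in WT BAT goes from 1.55 to 3.70 CPM at ZT 10 to 31.7 to 56.3 CPM at ZT 22, while FANKO BAT stays between 8.85 and 19.0 CPM.

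*Mcm2* in WT BAT had time-point means of 3.02, 2.45, 3.49 and 4.54 CPM at ZT 6, 10, 18 and 22, with SDs of 0.422, 0.381, 0.472 and 1.21 (n = 4 each). Its amplitude was 0.84 ± 0.22 (adjusted p = 0.00407). The call was lost with time point as a factor (adjusted p = 0.0136), with library size alone (adjusted p = 0.0206) and without each replicate number, and the difference of its rhythms between the genotypes did not pass the test (adjusted p = 0.359). In FANKO BAT the means of *Mcm2* were 11.2, 8.98, 10.1 and 11.6 CPM.

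Other S phase and mitosis genes, listed beside the members, were also mostly higher in FANKO BAT. In BAT 40 of 44 other mitosis genes rose and 1 fell, with a median of 2.45 on the log2 scale. Of 28 other S phase genes 22 rose and 4 fell there, with a median of 0.86. Among all genes tested 33.1% rose and 33.9% fell in BAT. In eWAT 7 rose and 0 fell among the mitosis genes and 10 rose and 1 fell among the S phase genes. The medians were 0.18 and 0.27, and among all genes tested 27.6% rose and 22.8% fell in eWAT. *Racgap1*, which positions the final cut between daughter cells, had medians of 1.22 and 7.14 CPM in WT and FANKO BAT (2.65 ± 0.14, adjusted p = 4.53e-25). *Dnmt1*, the maintenance DNA methyltransferase, had medians of 23.6 and 47.8 CPM (1.08 ± 0.06, adjusted p = 1.34e-24). *Dut*, which removes dUTP, fell in BAT by 0.69 ± 0.08 (adjusted p = 7.51e-12) and *Pttg1*, securin, fell by 0.35 ± 0.07 (adjusted p = 3.07e-05), but with library size alone *Dut* was not called (-0.09) and *Pttg1* was 0.23 higher. In eWAT *Pttg1* rose by 0.68 ± 0.08 (adjusted p = 2.05e-11). In eWAT *Rfc4*, a subunit of the clamp loader, went from a median of 4.06 to 8.29 CPM (1.06 ± 0.08, adjusted p = 7.92e-18) and *Mad2l1*, a checkpoint protein, from 3.76 to 6.62 CPM (0.84 ± 0.09, adjusted p = 5.18e-12). *Orc1*, a subunit of the origin recognition complex, fell there by 0.44 ± 0.13 (adjusted p = 0.00205, lost without replicate 4) and rose in BAT by 0.81 ± 0.14 (adjusted p = 5.95e-07), and *Mad1l1*, the mitosis gene with the smallest p among those below 0, was not called (-0.06 ± 0.06, adjusted p = 0.385).

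In the lists upstream of S phase the calls went both ways in BAT. Of 15 other genes of the E2F, pocket protein and DREAM complexes 3 rose and 7 fell in BAT, with a median of -0.10, and 2 rose and 1 fell in eWAT. Among all genes tested 33.1% rose and 33.9% fell in BAT, and 27.6% rose and 22.8% fell in eWAT. *Rbl1*, the pocket protein p107, which is made in cycling cells, went from a median of 4.999 to 22.6 CPM in BAT (2.19 ± 0.07, adjusted p = 6.97e-35). *Tfdp2*, a dimer partner of E2F factors, fell by 1.04 ± 0.06 in BAT (adjusted p = 2.91e-24) and fell by 0.25 ± 0.06 in eWAT (adjusted p = 0.000104). *Lin9*, a DREAM subunit, rose by 0.66 ± 0.07 in eWAT (adjusted p = 5.10e-12) and fell by 0.38 ± 0.07 in BAT (adjusted p = 2.04e-06), where it was 0.21 higher with library size alone. Of 8 G1 cyclins and kinases 4 rose and 2 fell in BAT, and 3 rose and 1 fell in eWAT. *Ccnd2*, cyclin D2, had the smallest p of this list in BAT, going from 18.3 to 36.4 CPM in WT BAT to between 149 and 222 CPM in FANKO BAT (2.91 ± 0.08, adjusted p = 1.89e-37), with no overlap. Its partner *Cdk4* fell in BAT by 0.40 ± 0.05 (adjusted p = 1.56e-10) but was 0.20 higher with library size alone. In eWAT *Cdk6* rose by 0.82 ± 0.07 (adjusted p = 3.62e-16), and *Ccne2*, cyclin E2, fell by 0.27 ± 0.09 (adjusted p = 0.00743), a call lost when any replicate number was left out.

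**Figure D4:**
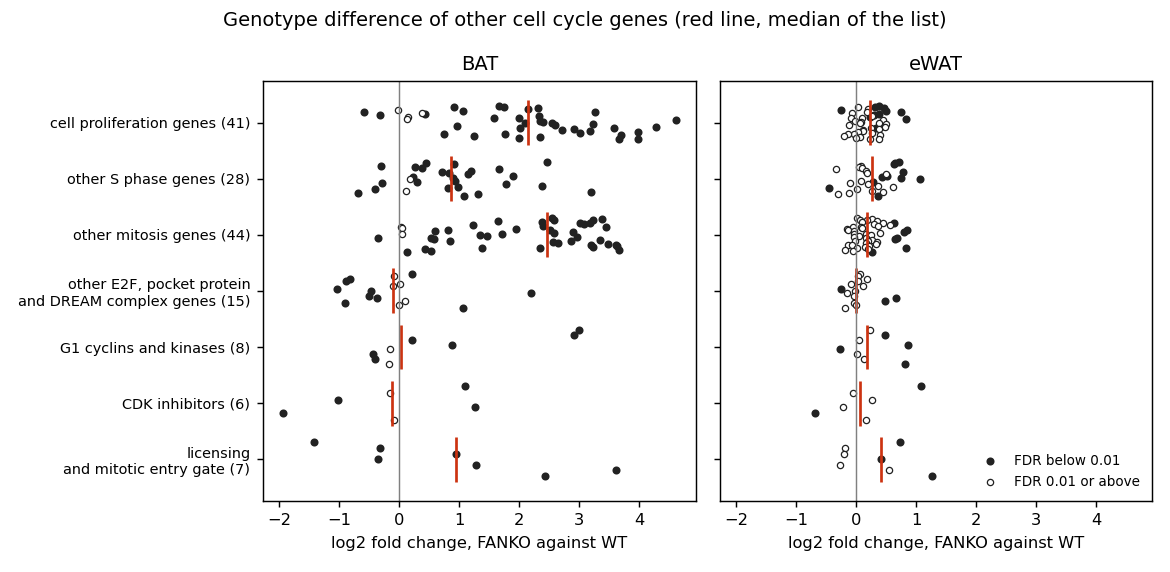
Log2 fold change of FANKO over WT in BAT and eWAT for the 41 members and for 6 other lists of cell cycle genes, 1 point per gene with the median of each list as a line. In BAT the members and other mitosis genes have medians of 2.14 and 2.45, while the E2F, pocket protein and DREAM genes have -0.10.

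Of 7 CDK inhibitors 6 were tested, with 2 higher and 2 lower in BAT, where 33.1% and 33.9% of all genes were, and 1 higher and 1 lower in eWAT, where 27.6% and 22.8% were. *Cdkn2c*, p18, fell in both depots, by 1.94 ± 0.11 in BAT (adjusted p = 1.24e-24) and by 0.69 ± 0.10 in eWAT (adjusted p = 2.40e-08). *Cdkn1a*, the p53 target p21, rose by 1.09 ± 0.16 in BAT (adjusted p = 1.83e-08) and by 1.08 ± 0.17 in eWAT (adjusted p = 1.54e-07), and its daily course differed between the genotypes in BAT (adjusted p = 1.82e-05) and in eWAT (adjusted p = 0.00268). In WT BAT its time-point means were 8.17, 10.3, 60.5 and 37.3 CPM at ZT 6, 10, 18 and 22, the mean at ZT 18 holding 1 sample at 143 CPM beside 3 between 23.5 and 40.3 CPM. In FANKO BAT the means of *Cdkn1a* were 41.1, 38.7, 47.2 and 51.7 CPM. *Cdkn2b*, p15, rose in BAT by 1.25 ± 0.13 (adjusted p = 3.43e-13), and its course differed between the genotypes in BAT (adjusted p = 0.00152) and eWAT (adjusted p = 0.000318). Of 7 genes that gate origin licensing and entry into mitosis 4 rose and 3 fell in BAT and 3 rose in eWAT. *Gadd45a*, a stress gene, rose in BAT by 2.43 ± 0.17 (adjusted p = 6.69e-20) and in eWAT by 1.27 ± 0.15 (adjusted p = 4.27e-11). *Gmnn*, geminin, which blocks *Cdt1*, lay between 11.7 and 32.2 CPM in WT BAT and between 5.21 and 10.1 CPM in FANKO BAT and fell by 1.41 ± 0.10 (adjusted p = 5.35e-19). In eWAT *Gmnn* rose by 0.74 ± 0.12 from a median of 2.07 to 3.62 CPM (adjusted p = 3.69e-07). *Cdc25b*, a phosphatase that activates *Cdk1*, had a difference of -0.27 ± 0.10 in eWAT (adjusted p = 0.025).

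Most markers of immune and stromal cells rose with the members in BAT, while most endothelial markers fell. The summed CPM of the 41 members ranged from 136 to 199 in WT BAT, median 160, and from 260 to 504 in FANKO BAT, median 327, without overlap. Among all genes tested 33.1% rose and 33.9% fell in BAT. Macrophage markers summed to between 73.3 and 152 CPM in WT BAT and between 352 and 811 CPM in FANKO BAT. Of these markers 5 of 6 rose, while *Cd163* went from a mean of 15.4 to 6.06 CPM. All 4 T cell markers rose, from a sum of 0.611 to 2.87 CPM to a sum of 28.7 to 95.5 CPM, and *Cd3e*, a defining T cell gene, was listed at 0 in 3 WT BAT samples. All 5 markers of B cells and lymph nodes rose (2.97 to 7.75 against 8.53 to 56.2 CPM). So did all 5 markers of progenitors and stroma (96.9 to 251 against 217 to 548 CPM). Adipocyte markers fell for 5 of 6 genes, from 12393 to 18267 CPM to 4954 to 8765 CPM, and endothelial markers for 3 of 4. The part of these cells in the level of the members was not tested. The FANKO BAT sample with the highest sum of members, ZT 6 replicate 1 at 504 CPM, had the highest T cell sum, 95.5 CPM, of its 16 samples and is 1 of the 9 samples high in muscle or epididymis markers, with 169 CPM of muscle markers. Its macrophage sum, 686 CPM, was not the highest. That was 811 CPM in ZT 18 replicate 4, whose members summed to 376 CPM. The WT BAT sample with the highest sum, ZT 18 replicate 2 at 199 CPM, had a T cell sum inside the range of its group.

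In eWAT the sum of the members ranged from 155 to 347 CPM in WT, median 228, and from 219 to 337 CPM in FANKO, median 266, with overlap. There 3 of 4 T cell markers rose, with sums of 1.32 to 5.16 CPM in WT and 4.21 to 13.4 CPM in FANKO, and all 5 progenitor and stroma markers fell, with sums of 404 to 681 against 255 to 360 CPM. Of 6 macrophage markers 3 rose and 1 fell, with overlapping sums of 503 to 672 and 449 to 760 CPM. Among all genes tested 27.6% rose and 22.8% fell in eWAT. The WT sample with the highest sum of members, ZT 22 replicate 3 at 347 CPM, had the lowest T cell sum of its 16 samples, 1.32 CPM, and the FANKO sample with the highest, ZT 6 replicate 3 at 337 CPM, had the highest T cell sum, 13.4 CPM. The macrophage sum was 561 CPM in that WT sample, inside the range of its group, and 760 CPM in that FANKO sample, the highest of its group. The part of these cells in the members' levels in eWAT was not tested. By role, the sum over the 7 kinetochore genes differed 6.87-fold between the group medians in BAT and 1.17-fold in eWAT, and that over the 11 replication genes 1.80-fold and 1.09-fold.

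**Figure D5:**
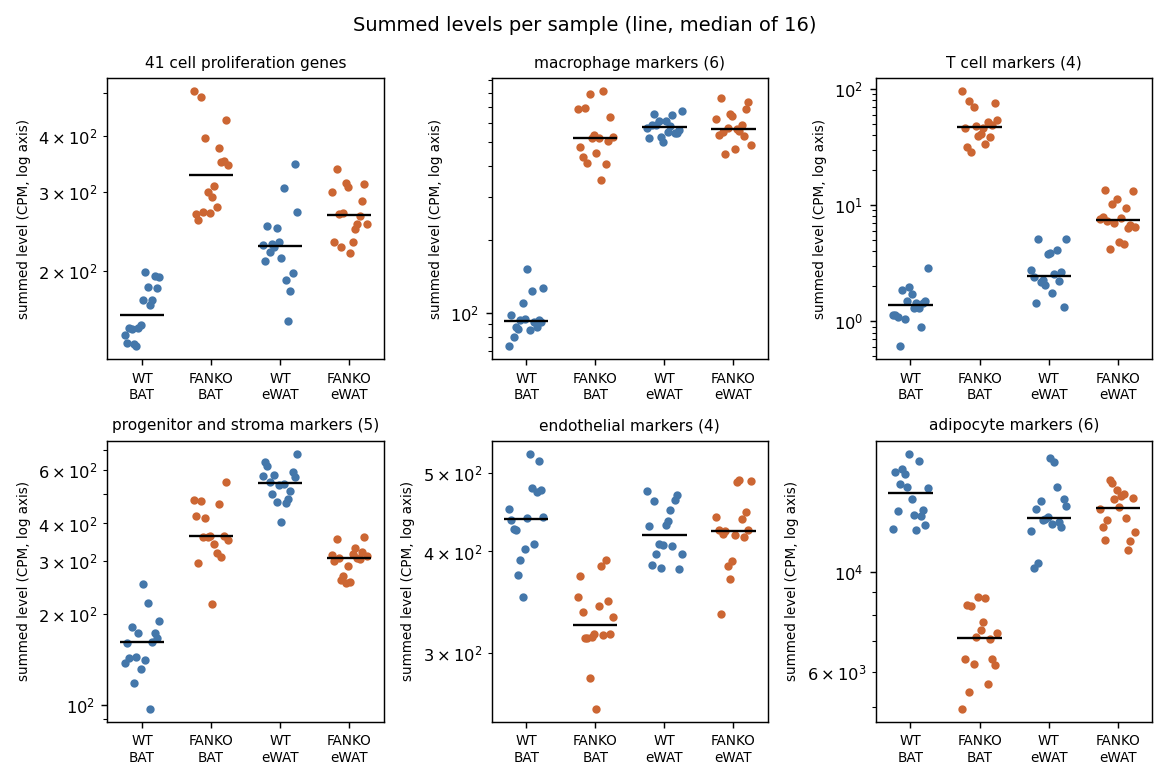
Summed CPM per sample, on a log axis, of the 41 members and of macrophage, T cell, progenitor and stroma, endothelial and adipocyte markers in the 4 sets of depot and genotype, 16 samples each, with the median as a line. The members' sums are 260 to 504 CPM in FANKO BAT and 136 to 199 CPM in WT BAT, and T cell sums are 28.7 to 95.5 and 0.611 to 2.87 CPM.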

How the data were processed

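RNA-seq counts of 64 BAT and eWAT samples were analysed, 4 in each of 16 groups that were taken from the sample labels. Libraries were made with the TruSeq Stranded Total RNA protocol after removal of ribosomal RNA. Per the submitters' processing notes the tools were FastQC 0.11.5, STAR 2.5.3a, featureCounts 1.5.3 and MultiQC 1.2 with the GRCm38.p5 build. The authors deposited whole-number counts per gene for each sample, without normalization or pooling. The strand option of the counting is not given in the sources used here.

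The deposited counts entered edgeR 4.0.16 in R 4.3.3 unchanged. Genes passed edgeR's filterByExpr on the 16 groups (minimum count 10, minimum total 15), which left 20249 of 52636 genes. A gene can pass through 1 group alone. Libraries were scaled by TMM, and a single quasi-likelihood fit of the 64 samples had 12 coefficients, a mean level and 2 terms of a 24-h cosine curve per depot and genotype. Adjustment followed Benjamini and Hochberg across the 20249 genes, with calls below an FDR of 0.01. Log2 CPM values averaged per time point gave the amplitudes (prior count 2). The fit was tested on simulated counts. Nothing in the labels ties samples to separate cultures or pools, and BAT and eWAT samples of 1 group number may come from the same mouse, so p values measure the spread between these samples. No pair of replicates agreed within sampling noise (96 pairs, chi-square per degree of freedom from 5.53 to 161).

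Symbols, coordinates and exonic lengths came from GENCODE M21, which gave a symbol for 52403 identifiers, and promoter windows from RefSeq (GRCm38.p6). The members, the other lists, the markers and the rule for named genes were chosen with earlier results of these data known. The rule named *Nampt*, *Mki67*, *Top2a*, every member called in a rhythm test, per role and depot the members with the smallest and the largest p of the genotype difference, and per other list and depot the gene with the smallest p in each direction, and per depot the 2 genes of those lists with the smallest p of the rhythm difference. Members outside it were named to complete a count, after their values were seen.

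Alternatives were DESeq2 1.42.0, RLE factors, library size alone, no filter on low counts, time point as a factor, a replicate block, separate fits for each depot, an FDR of 0.05, a prior count of 0.5 and leaving out each replicate number. Leaving out the 9 samples high in muscle or epididymis markers was chosen after seeing the data. Figures were drawn with Python 3.11.15 and matplotlib 3.10.9.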

Additional observations from a re-analysis of the deposited data

Results flagged for a closer look

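Of 80 groups of 4 samples checked for 1 sample far from the others, 4 had one, and chance gives about 1 in 20. *Mki67* in WT BAT at ZT 6 was 3.69 CPM in replicate 2, with the nearest sample at 1.74 CPM. *E2f2* in FANKO eWAT at ZT 6 was 5.39 CPM in replicate 3, next to 4.33 CPM. *Mcm2* in FANKO BAT at ZT 10 was 11.8 CPM in replicate 2, next to 8.20 CPM. *Nampt* in WT BAT at ZT 6 was 559 CPM in replicate 1, next to 490.1 CPM.

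The genotype effect differed between the depots for 36 of 41 members in edgeR's interaction test, against 13025 of all 20249 genes tested. For *Cdc45*, *Rrm1* and *E2f2* the signed effect in eWAT minus that in BAT was positive, 0.77, 0.61 and 0.69 on the log2 scale (adjusted p = 1.80e-08, 1.32e-10 and 0.0016). *Cdc45* and *Rrm1* were called lower in FANKO BAT. The daily course of *E2f2* differed between the genotypes in BAT, where the amplitude was 4.14 on the log2 scale for WT and 0.84 for FANKO samples (adjusted p = 5.32e-09).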

How the results depend on the processing

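The count of 35 members higher in FANKO BAT was 35 without each replicate number, 35 with the replicate block and 36 in DESeq2. With library size alone the count lower in FANKO BAT went from 2 to 0, that lower in FANKO eWAT from 1 to 2, that higher in FANKO eWAT from 11 to 2 and that rhythmic in WT eWAT from 1 to 0, and the BAT differences of *Cdc45* and *Rrm1* turned to 0.013 and 0.27. Members higher in FANKO eWAT were 7 with RLE factors and 7 with no filter on low counts. Members higher in FANKO BAT than in FANKO eWAT went from 16 to 25 in DESeq2 and 25 with RLE factors. At an FDR of 0.05 members lower in FANKO BAT than in FANKO eWAT were 5, those rhythmic in WT BAT 5 and those rhythmic in FANKO eWAT 5. Those rhythmic in WT BAT were 1 with time point as a factor, and those rhythmic in WT eWAT 0 with separate fits for each depot. Without 1 replicate number the count was 0 to 1 for members lower in FANKO eWAT, 5 to 9 for those higher there, 10 to 25 for those higher in FANKO BAT than in FANKO eWAT, 1 to 1 for those rhythmic in WT BAT and 0 to 1 for those rhythmic in WT eWAT. The cause of these shifts was not tested. Low counts of the members limit precision most in WT BAT, where their median counts had a median of 15 although the median total count of its libraries, 17180574, was above that of FANKO BAT.

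Whether replicate numbers pair the samples was not settled. Same-numbered samples of different groups had a median correlation of deviations of 0.0258, and 72 of 480 pairs exceeded 0.1. For differently numbered samples of different groups it was -0.0117, with 97 of 1440 pairs above 0.1. For BAT and eWAT of the same genotype, ZT and number it was 0.0527, with 10 of 32 pairs above 0.1. With the replicate block 35 members were higher and 2 lower in FANKO BAT, 11 higher and 1 lower in FANKO eWAT, and 18 higher in FANKO BAT than in FANKO eWAT. With a block by number within genotype and ZT, as if BAT and eWAT came from the same mouse, that last count was 22 and 38 members differed in effect between depots.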
